A study of Mus musculus with 8 samples.

Results

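Inflammasomes are protein complexes that start the release of interleukin 1 family cytokines, and the results concern 8 genes of the mouse complexes and their executioners. These are the sensors *Nlrp3*, *Nlrc4* and *Aim2*, the adaptor *Pycard* (the gene of ASC), the caspases *Casp1*, *Casp4* and *Casp8*, and the pore former *Gsdmd*. Genes were taken by symbol where at least 1 probe set of the array is annotated to that gene alone, which holds for 7 of the 8, out of 18194 such genes on the array. *Nlrc4* has no such probe set among those used, so its transcript was not analysed here. Where a gene has several probe sets, the one with the highest mean over all arrays represents it, and other probe sets of the inflammasome genes are given beside it.

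RNA came from the hypothalamus of 4 *Nestin-Pex5*-/- and 4 wild type mice, all 10 weeks old and on a Swiss Webster background, with 1 Affymetrix array per mouse. *Nestin-Pex5*-/- mice carry a floxed *Pex5* gene and *Cre* under the Nestin promoter, so that the import receptor for peroxisomal matrix proteins is lost in the cells that descend from neural progenitors. Microglia, which arise outside that lineage, are not targeted by this *Cre*. Arrays are named by the numbers of the labels, 7 to 10 for *Nestin-Pex5*-/- and 1 to 4 for wild type. Values are log2 levels after RMA, a method that removes background, sets all arrays to the same distribution and combines the probes of a probe set. A difference of 1 on this scale is a doubling, and levels of different probe sets cannot be set against each other.

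Inflammasome sensors recognise microbial or cellular danger signals in the cytosol and recruit caspase 1 through the adaptor ASC. Active caspase 1 cuts the precursors of interleukin 1 beta and interleukin 18, and cuts gasdermin D, whose amino-terminal part forms pores in the plasma membrane. Several components are held at a low level and are made in larger amounts only after a priming signal through toll-like, cytokine or interferon receptors. In the brain, microglia are the best known site of this pathway, and much of its control lies in protein assembly and cleavage, which a transcript array does not read.

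The arrays were of similar overall level, with medians between 6.70 and 6.84. In a principal component analysis the genotypes were separated along the first axis (49.3% of the variance), and wild type array 4 stood apart along the second (18.7%). The third axis (12.8%) parted *Nestin-Pex5*-/- arrays 7 and 8 from 9 and 10. Meninges markers averaged 8.01 and 8.26 in arrays 7 and 8, against 9.23 and 9.17 in 9 and 10. Wild type array 3 lay on the same side of this axis as 9 and 10, yet had the lowest wild type meninges mean (8.72). The 13 measured hypothalamus markers averaged 9.0 to 9.57 in the *Nestin-Pex5*-/- arrays and 9.18 to 9.54 in the wild type arrays. Of these 13, 1 was called lower (limma adjusted p under 0.05), beside 0.791% of all genes. At an unadjusted limma p under 0.05, 3 were lower, beside 1457 of all 18194 genes. The main *Pex5* probe set read 8.58 to 8.76 in *Nestin-Pex5*-/- and 8.62 to 8.70 in wild type, and it may lie outside the deleted part of the gene, so it does not check the genotype. In whole tissue, more cells of a type and more transcript per cell cannot be told apart, and this holds for every result that follows.

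Promoter windows are shown for the 4 genes that rose and have a window, and for *Nlrp3*, whose level did not pass the test. RefSeq windows of 300 bases, 250 before and 50 after a start site, were found for 7 of the 8 genes in build GRCm38.p6. They lie at chr7:127993818-127994117 on the minus strand for *Pycard*, and on the plus strand at chr9:5298267-5298566 for *Casp1*, chr9:5308599-5308898 for *Casp4*, chr1:58802252-58802551 for *Casp8* and chr11:59542436-59542735 for *Nlrp3*. Capitals mark matches, on either strand, to short motifs of transcription factors of myeloid and inflammatory genes. These are GAGGAA (the core bound by PU.1), AANNGAAA (the core bound by interferon regulatory factors), and GGGANTTTC or GGGANTTCC (NF-kappaB). For AP-1, TGACTCA and TGAGTCA were searched.
Pycard: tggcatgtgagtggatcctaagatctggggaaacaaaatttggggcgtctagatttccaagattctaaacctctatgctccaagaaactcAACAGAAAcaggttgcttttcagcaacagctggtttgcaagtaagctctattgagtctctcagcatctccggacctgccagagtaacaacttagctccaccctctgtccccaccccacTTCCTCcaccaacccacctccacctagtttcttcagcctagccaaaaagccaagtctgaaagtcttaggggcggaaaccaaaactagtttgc
Casp1: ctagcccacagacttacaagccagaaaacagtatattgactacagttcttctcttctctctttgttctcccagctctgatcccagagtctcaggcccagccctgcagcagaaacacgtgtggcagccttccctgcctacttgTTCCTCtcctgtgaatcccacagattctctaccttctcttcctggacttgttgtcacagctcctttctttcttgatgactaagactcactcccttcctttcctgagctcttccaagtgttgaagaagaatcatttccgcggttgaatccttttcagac
Casp4: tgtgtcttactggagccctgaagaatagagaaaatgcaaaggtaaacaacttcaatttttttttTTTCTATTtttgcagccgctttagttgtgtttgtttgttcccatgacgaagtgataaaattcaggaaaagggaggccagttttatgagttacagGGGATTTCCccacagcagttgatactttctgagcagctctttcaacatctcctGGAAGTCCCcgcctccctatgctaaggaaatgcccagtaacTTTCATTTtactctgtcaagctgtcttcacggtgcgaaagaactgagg
Casp8: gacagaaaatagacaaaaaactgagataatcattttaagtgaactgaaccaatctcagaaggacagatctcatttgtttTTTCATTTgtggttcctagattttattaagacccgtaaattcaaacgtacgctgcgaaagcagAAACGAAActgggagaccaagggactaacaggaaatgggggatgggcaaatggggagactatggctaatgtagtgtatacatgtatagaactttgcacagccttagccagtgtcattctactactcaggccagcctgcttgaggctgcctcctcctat
Nlrp3: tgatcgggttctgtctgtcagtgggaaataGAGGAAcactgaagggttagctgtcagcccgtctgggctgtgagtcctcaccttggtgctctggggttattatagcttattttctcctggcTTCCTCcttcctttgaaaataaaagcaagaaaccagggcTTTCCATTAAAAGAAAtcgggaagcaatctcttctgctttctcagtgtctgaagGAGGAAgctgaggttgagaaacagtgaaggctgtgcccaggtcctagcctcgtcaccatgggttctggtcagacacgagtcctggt

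The *Pycard* window held 1 match to the PU.1 core and 1 to the interferon regulatory factor core. The *Casp1* window held 1 match to the PU.1 core alone. The *Casp4* window held 2 matches to the interferon regulatory factor core and 2 to the NF-kappaB motif, and the second *Casp4* window, which overlaps it, held the same. The *Casp8* window held 2 matches to the interferon regulatory factor core. The *Nlrp3* window had the most matches of these windows, 3 to the PU.1 core and 2 to the interferon regulatory factor core, which lie end to end, while the second *Nlrp3* window held 1 interferon regulatory factor match. The *Aim2* window, not printed, held 2 PU.1 matches and 1 NF-kappaB match, the *Nlrc4* window held none, and no window of these genes held an AP-1 match. Among all 32851 windows, 28.3% held the PU.1 core, 23.9% the interferon regulatory factor core, 2.75% an NF-kappaB motif and 5.20% an AP-1 motif. These matches describe the letters only, since no binding was measured.

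Of the 7 genes measured, 5 were higher in *Nestin-Pex5*-/- hypothalamus and 0 were lower (limma, Benjamini-Hochberg adjusted p under 0.05 over 18194 genes). Among all genes, 3.98% were called higher and 0.791% lower. The 5 were the adaptor *Pycard*, the caspases *Casp1*, *Casp4* and *Casp8*, and *Gsdmd*, while the sensors *Nlrp3* and *Aim2* did not pass the threshold. In 6 of the 7 genes every *Nestin-Pex5*-/- array lay above every wild type array, which was so for 6.63% of all genes. The median log2 fold change of the 7 genes was 0.96, against -0.03 for all genes, where a fold change is *Nestin-Pex5*-/- over wild type. The plot of the 7 genes by array shows this order of groups.

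**Figure D1:**
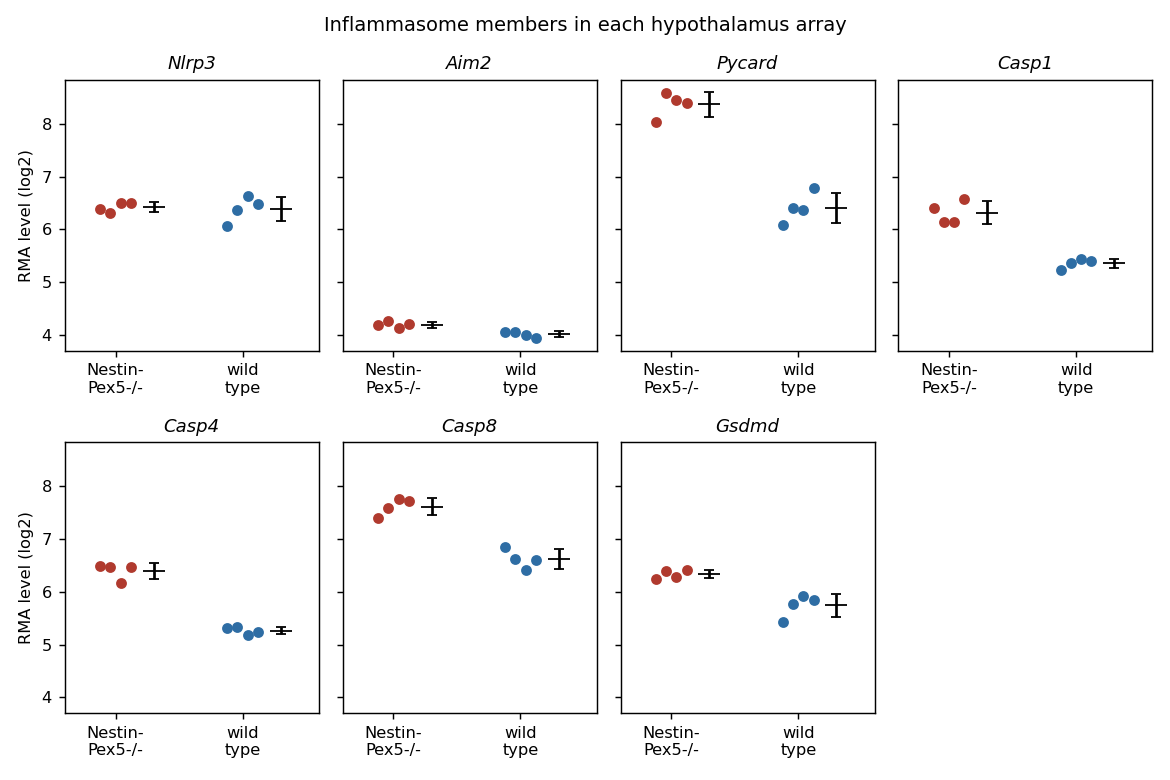
RMA level (log2) of the 7 measured inflammasome genes in each array, *Nestin-Pex5*-/- in red and wild type in blue, with the mean and SD in black (n = 4 each). The groups are apart in every panel except *Nlrp3*, and the distance is widest for *Pycard* (8.37 in *Nestin-Pex5*-/- and 6.41 in wild type).

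Neither measured sensor passed the adjusted threshold. *Nlrp3*, which responds to potassium efflux and to damage of membranes and lysosomes, read 6.39, 6.30, 6.51 and 6.49 in *Nestin-Pex5*-/- arrays 7 to 10, against 6.07, 6.37, 6.62 and 6.48 in wild type arrays 1 to 4. The groups overlapped, and no *Nestin-Pex5*-/- array exceeded the highest wild type array. The log2 fold change was 0.04 ± 0.11 (SE, n = 4 each), with a 95% interval of -0.21 to 0.29 and a limma adjusted p of 0.895, so changes beyond 1.22-fold upwards or 0.864-fold downwards lie outside the interval. *Aim2*, which binds double-stranded DNA in the cytosol, read 4.18, 4.25, 4.12 and 4.20 in *Nestin-Pex5*-/-, against 4.04, 4.06, 4.00 and 3.93 in wild type. Its groups did not overlap but were apart by only 0.065, and the log2 fold change of 0.18 ± 0.056 (SE, 95% interval 0.054 to 0.30) did not pass the threshold (limma adjusted p = 0.127, unadjusted p = 0.010; exact permutation p = 0.029, the smallest that 4 against 4 arrays allow). The mean levels of 16 genes not expected in brain ran from 3.60 to 7.08. The mean levels of *Nlrp3*, *Aim2*, *Casp1*, *Casp4* and *Gsdmd* in both genotypes lie in that range. So do the wild type means of *Pycard* (6.41) and *Casp8* (6.62). A level there does not by itself show that a transcript was present, and no detection call was used.

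The adaptor *Pycard* had the largest change of the 7 genes. ASC, its product, joins sensors to caspase 1 through a pyrin domain and a caspase recruitment domain, and polymerises into specks. Its main probe set, 1417346_at, read 8.04, 8.58, 8.45 and 8.40 in *Nestin-Pex5*-/- arrays 7 to 10, against 6.08, 6.40, 6.37 and 6.78 in wild type arrays 1 to 4. The lowest *Nestin-Pex5*-/- array was 1.25 above the highest wild type array. The log2 fold change was 1.96 ± 0.15 (SE, n = 4 each), or 3.89-fold (95% interval 3.05 to 4.95), with a limma adjusted p of 4.7e-05, and 64 genes of the array had a larger log2 fold change. The other probe sets of *Pycard* did not show this. Probe set 1417347_at averaged 4.44 in *Nestin-Pex5*-/- and 4.32 in wild type, a log2 fold change of 0.12 (limma adjusted p = 0.562 over 34958 single-gene probe sets). Probe set 1446926_at averaged 5.09 in *Nestin-Pex5*-/- and 5.11 in wild type, a log2 fold change of -0.02 (adjusted p = 0.938 in the same fit). In that fit 3% of all single-gene probe sets were called higher. The mean levels of 1417347_at and 1446926_at lay, in both genotypes, in the range of the genes not expected in brain (3.60 to 7.08). Whether these probe sets read the *Pycard* transcript at all is therefore not known. When the 3 probe sets were averaged, the log2 fold change of *Pycard* was 0.69 and still passed the threshold.

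The inflammatory caspases rose about 2-fold. *Casp1*, the protease that matures interleukin 1 beta and interleukin 18, read 6.41, 6.14, 6.15 and 6.58 in *Nestin-Pex5*-/-, against 5.23, 5.35, 5.43 and 5.40 in wild type. Its groups were 0.71 apart, and its log2 fold change was 0.96 ± 0.10 (SE), or 1.95-fold (95% interval 1.66 to 2.28; limma adjusted p = 0.000403). *Casp4* encodes the mouse protease also called caspase 11, which binds lipopolysaccharide in the cytosol and cuts gasdermin D. It read 6.49, 6.47, 6.17 and 6.47 in *Nestin-Pex5*-/-, against 5.32, 5.33, 5.19 and 5.24 in wild type. Array 9 was the lowest of the *Nestin-Pex5*-/- arrays and still 0.84 above the highest wild type array. The log2 fold change of *Casp4* was 1.13 ± 0.081 (SE), or 2.19-fold (95% interval 1.93 to 2.48; limma adjusted p = 2.43e-05).

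*Casp1* and *Casp4* lie side by side on chromosome 9, and the next protein-coding gene there is *Casp12*, a relative that has been tied to stress of the endoplasmic reticulum. The main *Casp12* probe set averaged 6.59 ± 0.12 in *Nestin-Pex5*-/- and 6.10 ± 0.14 in wild type (SD, n = 4 each), with no overlap between the groups. Its log2 fold change was 0.49 ± 0.087 (SE; limma adjusted p = 0.00928). A second *Casp12* probe set, 1449297_at, averaged 5.32 in *Nestin-Pex5*-/- and 4.44 in wild type, and was called higher as well (log2 fold change 0.88, adjusted p = 0.00958 over all single-gene probe sets). All 3 neighbours were thus higher in *Nestin-Pex5*-/- hypothalamus. The other caspases that were measured did not pass the test. *Casp2*, *Casp6*, *Casp9* and *Casp14*, which act in apoptosis or in the skin, had log2 fold changes between -0.23 (*Casp9*, adjusted p = 0.419) and 0.20 (*Casp6*, adjusted p = 0.229).

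*Casp8*, which starts apoptosis below death receptors, holds back necroptosis and can cut interleukin 1 beta and gasdermin D, was also higher. It read 7.40, 7.59, 7.76 and 7.72 in *Nestin-Pex5*-/- arrays 7 to 10, against 6.86, 6.62, 6.41 and 6.60 in wild type arrays 1 to 4. The groups were 0.54 apart, and the log2 fold change was 1.0 ± 0.11 (SE), or 1.99-fold (95% interval 1.69 to 2.36; limma adjusted p = 0.000443). Of 16 measured genes of the caspase 8 complex and of necroptosis, 3 were higher and 0 lower (all genes 3.98% and 0.791%). *Tnfrsf1a*, the main receptor for tumour necrosis factor, had a log2 fold change of 0.93 (adjusted p = 3.95e-05). *Birc3*, an inhibitor of apoptosis with ubiquitin ligase activity, had 0.71 (adjusted p = 0.000962) from a probe set whose name ends in _a_at, and was not called from its other probe set. *Cflar*, the catalytically dead partner of caspase 8, had 0.37 (adjusted p = 0.0355), and lost its call in 5 of the 8 fits that left out 1 array (adjusted p up to 0.0989). The median of these 16 genes was 0.14, and the adaptor *Fadd* (0.08) and the necroptosis kinase *Ripk3* (0.12) did not pass the test.

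*Gsdmd*, the substrate that forms the membrane pore, had the smallest change of the 5 genes. It read 6.25, 6.40, 6.28 and 6.41 in *Nestin-Pex5*-/-, against 5.44, 5.77, 5.92 and 5.85 in wild type. Every *Nestin-Pex5*-/- array lay above the highest wild type array, and wild type array 1 was the lowest of all. The log2 fold change was 0.59 ± 0.10 (SE), or 1.51-fold (95% interval 1.29 to 1.76; limma adjusted p = 0.00839). None of the 5 other pore proteins measured passed the test in limma, and 0 had an unadjusted p under 0.05. They included the gasdermin *Gsdme* (log2 fold change 0.10, adjusted p = 0.381), *Gsdma2* (-0.13, adjusted p = 0.299) and the necroptosis effector *Mlkl* (0.10, adjusted p = 0.53). Among all 18194 genes, 3.98% were called higher and 0.791% lower. Without adjustment, 1611 of them were higher and 1457 lower at p under 0.05. Apart from *Gsdme*, the means of these pore proteins in each genotype were 3.42 to 5.90. That is within or below the range of the genes not expected in brain (3.60 to 7.08).

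**Figure D2:**
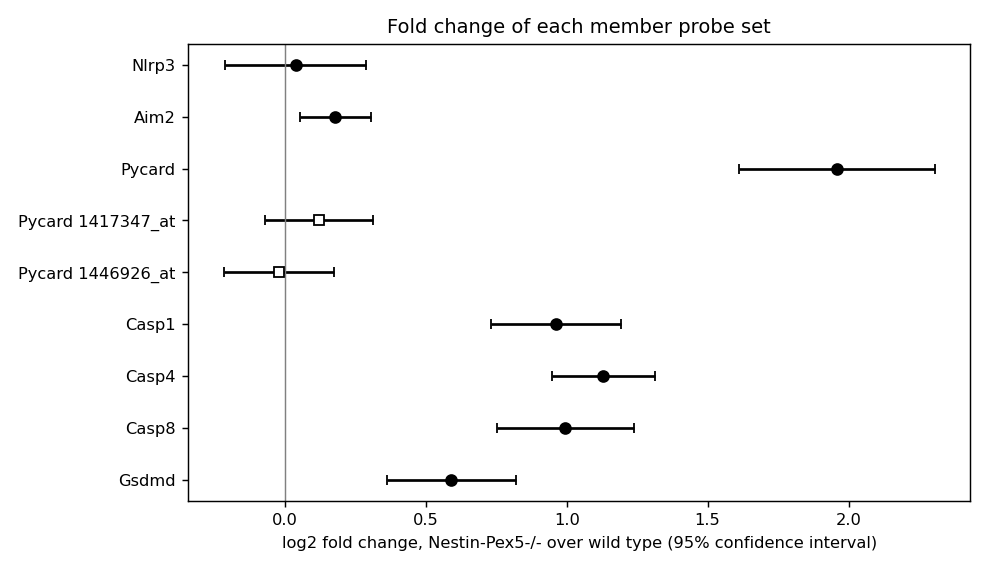
Log2 fold change, *Nestin-Pex5*-/- over wild type, of each probe set of the 7 measured genes, with its 95% confidence interval from limma (n = 4 each); filled circles are main probe sets and open squares the other *Pycard* probe sets. The intervals of the main probe sets lie above 0 except that of *Nlrp3*, which spans 0, with *Aim2* nearest to 0 among the rest (0.054 to 0.30), and *Pycard* reads 1.96 from its main probe set but 0.12 and -0.02 from the others.

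Of the cytokines that the pathway releases and their receptors, 3 of 13 measured genes were higher and 0 lower (all genes 3.98% and 0.791%). *Il1b*, the precursor cut by caspase 1, read 7.13, 7.37, 7.50 and 7.21 in *Nestin-Pex5*-/-, against 5.65, 5.61, 5.93 and 6.50 in wild type. Wild type array 4 was the highest of its group and 0.63 below the lowest *Nestin-Pex5*-/- array. Its log2 fold change was 1.38 ± 0.18 (SE), or 2.60-fold (95% interval 1.96 to 3.45; limma adjusted p = 0.00167). *Il18*, the other main substrate, read 9.79, 9.86, 9.76 and 9.77 in *Nestin-Pex5*-/-, against 9.72, 9.56, 9.59 and 9.73 in wild type. The groups did not overlap, but were only 0.025 apart, and the log2 fold change of 0.15 ± 0.061 (SE) did not pass the threshold (adjusted p = 0.267).

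*Il1a* and *Il33* are released by damaged cells and act without caspase 1. *Il1a* averaged 5.39 ± 0.20 in *Nestin-Pex5*-/- and 4.95 ± 0.087 in wild type (SD, n = 4 each), a log2 fold change of 0.44 (limma adjusted p = 0.0376). *Il33* averaged 9.72 ± 0.22 in *Nestin-Pex5*-/- and 9.15 ± 0.22 in wild type, a log2 fold change of 0.57 (adjusted p = 0.0398). Both calls were close to the threshold and were lost in 6 of the 8 fits that left out 1 array (adjusted p up to 0.116 for *Il1a* and 0.118 for *Il33*). The receptors and antagonists did not pass the test from their main probe sets. The signalling receptor *Il1r1* had a log2 fold change of 0.25, its partner *Il1rap* 0.34, the decoy *Il1r2* 0.05 and the antagonist *Il1rn* 0.27, with adjusted p between 0.278 and 0.807. A further *Il1rn* probe set was called higher, at 1.62-fold, and the third read 1.02-fold. *Il18r1*, *Il18rap*, the interleukin 18 binding protein *Il18bp*, the inhibitory receptor *Sigirr* and *Ninj1*, which ruptures the membrane of dying cells, had log2 fold changes between -0.20 and 0.09.

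**Figure D3:**
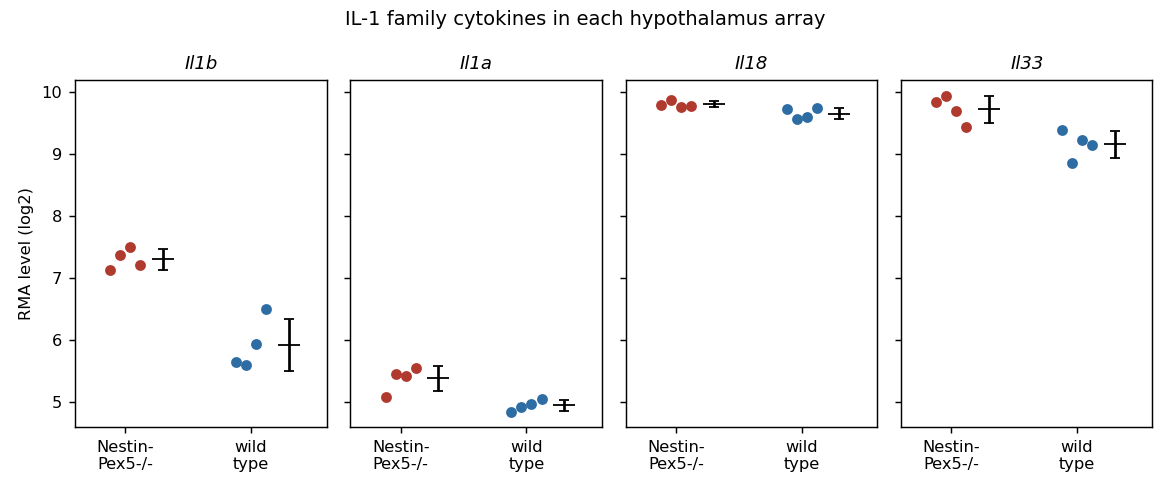
RMA level (log2) of *Il1b*, *Il1a*, *Il18* and *Il33* in each array, *Nestin-Pex5*-/- in red and wild type in blue, with the mean and SD in black (n = 4 each). The *Il1b* groups are 0.63 apart at their nearest arrays, those of *Il18* 0.025.

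Beside *Nlrp3* and *Aim2*, 4 of 19 other sensor genes were higher and 0 lower, against 3.98% and 0.791% of all genes. The median log2 fold change of the 19 was 0.02. *Naip2*, the partner of NLRC4 that binds the rod protein of bacterial secretion systems, averaged 6.05 ± 0.14 in *Nestin-Pex5*-/- and 4.62 ± 0.23 in wild type (SD, n = 4 each). Its log2 fold change was 1.43 ± 0.12 (SE; limma adjusted p = 5.74e-05). *Naip5*, the flagellin-binding partner, averaged 5.42 ± 0.11 in *Nestin-Pex5*-/- and 4.10 ± 0.20 in wild type, a log2 fold change of 1.31 ± 0.10 (adjusted p = 4.68e-05). *Naip6*, another copy, averaged 6.32 in *Nestin-Pex5*-/- and 5.94 in wild type and was not called (log2 fold change 0.38, adjusted p = 0.316). The *Naip* genes are close copies and binding to another copy was not checked, so which copy was read is uncertain. *Nlrc5*, known as an activator of MHC class I genes, had a log2 fold change of 0.99 (adjusted p = 4.44e-05), and *Ifi204*, a DNA sensor of the *Aim2* family, had 0.64 (adjusted p = 0.00571). The means of *Naip2*, *Naip5*, *Nlrc5* and *Ifi204* in both genotypes lay within or below the range of the genes not expected in brain (3.60 to 7.08). The sensors *Nlrp6*, *Nlrp10*, *Nlrp12* and *Mefv* had log2 fold changes between -0.09 and -0.03 and did not pass the test.

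Among the regulators and triggers of inflammasomes, 12 of 31 measured genes were higher and 0 lower, against 3.98% and 0.791% of all genes. Their median log2 fold change was 0.24. *Cd14*, a co-receptor for lipopolysaccharide, had the largest, with a mean of 9.67 ± 0.11 in *Nestin-Pex5*-/- and 6.73 ± 0.45 in wild type (log2 fold change 2.94 ± 0.19 SE, limma adjusted p = 1.4e-05). The guanylate-binding proteins *Gbp2* and *Gbp3* and the related GTPase *Irgm1*, which are interferon-induced and act on pathogen membranes, had log2 fold changes of 1.53, 1.49 and 1.31. The largest adjusted p among those 3 genes was 0.000265. *Trim30a* had 1.16 from its main probe set (2.23-fold, adjusted p = 0.000358), and its other probe set was called higher at 4.29-fold. The main probe set of *Gbp2* ends in _x_at and can bind related transcripts, and its other probe set was called higher at 2.72-fold. For *Gbp2*, *Gbp3* and *Trim30a*, binding of related transcripts was not checked. *Nek7*, the kinase that NLRP3 needs for assembly, had a log2 fold change of 0.26 and did not pass the test (adjusted p = 0.077). *Clic1*, *Kcnk6* and *P2rx7*, of the same list, were called higher, with log2 fold changes of 1.15, 0.96 and 0.81. Their limma adjusted p were 0.000469, 0.000991 and 0.000738. *P2rx7* probe set 1419853_a_at was called higher as well (1.04), while 1422218_at was not (0.26).

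Of the lists for priming signals, each had 7 genes past the threshold. Of 16 genes of toll-like receptor and NF-kappaB signalling, 7 were higher and 0 lower, with a median log2 fold change of 0.25. *Tlr2*, a receptor for bacterial lipoproteins, averaged 8.07 ± 0.17 in *Nestin-Pex5*-/- and 5.84 ± 0.066 in wild type (SD, n = 4 each), a log2 fold change of 2.23 ± 0.085 (SE; limma adjusted p = 4.75e-07). The single-stranded RNA receptor *Tlr7* had 0.98, *Ly96*, the partner of TLR4, 0.74, and the double-stranded RNA receptor *Tlr3* 0.74, each with an adjusted p of 0.00372 or lower. *Relb*, a subunit of NF-kappaB, had 0.53 (adjusted p = 0.0275). Of 12 genes of interferon signalling, 7 were higher and 0 lower, with a median of 0.42. *Irf8*, a myeloid interferon regulatory factor, averaged 8.47 ± 0.14 in *Nestin-Pex5*-/- and 6.09 ± 0.19 in wild type, a log2 fold change of 2.38 ± 0.10 (SE; adjusted p = 1.15e-06). *Irf9* had 0.90 (adjusted p = 0.0115), *Sting1* 0.50 (1.42-fold, adjusted p = 0.0217), and the receptor chains *Ifnar2* and *Ifngr2* 0.44 and 0.43 (adjusted p 0.00467 and 0.00673). The calls of *Relb* and *Sting1* were each lost in 5 of the 8 fits without 1 array, with adjusted p up to 0.092 and 0.0774. Another probe set of *Sting1* was called higher at 2.41-fold, and another of *Irf8* at 3.35-fold. The other probe sets of *Tlr7* read 1.05-fold and 1.08-fold, that of *Ifngr2* read 1.09-fold, and none of these was called. Of the other *Ifnar2* probe sets, which read 1.30-fold and 1.40-fold, 1 was called. Over the 8 lists around the inflammasome genes, 37 of 117 measured genes, or 31.6%, were higher and 0 lower, beside 3.98% and 0.791% of all genes, and their median log2 fold change was 0.16. The lists were chosen with results of these arrays known, so their counts are a description.

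**Figure D4:**
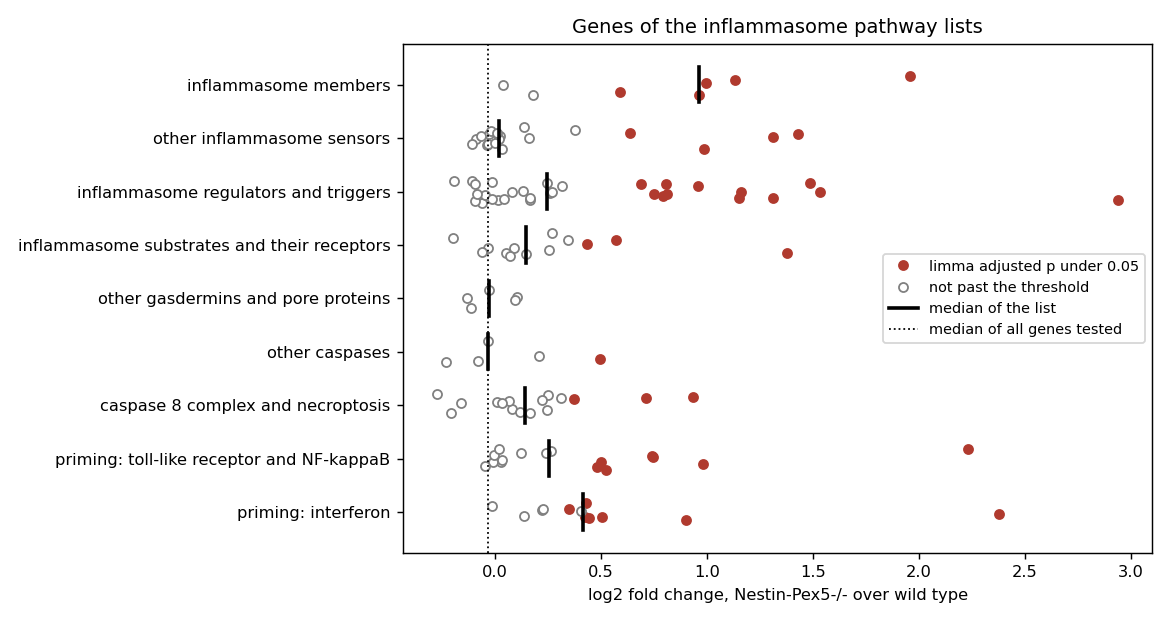
Log2 fold change, *Nestin-Pex5*-/- over wild type, of each measured gene of the inflammasome list (top) and of the 8 lists around it, red where the limma adjusted p was under 0.05, with the list median as a bar and the median of all genes as a dotted line. The inflammasome genes have a median of 0.96, the interferon list 0.42, the other sensors 0.02, and no red point lies below 0.

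Microglia markers moved with these genes. Of 19 measured markers 18 were higher and 0 lower, against 3.98% and 0.791% of all genes, and *P2ry12* did not pass the threshold. The mean level of the 19 markers was 9.15 to 9.46 in the *Nestin-Pex5*-/- arrays and 7.67 to 7.89 in the wild type arrays, a difference of 1.57. Their part in the rise of the inflammasome genes was not tested. Subtracting the marker mean of the same array gave each gene a level relative to microglia markers. For *Pycard* it was 0.39 higher in *Nestin-Pex5*-/- than in wild type, with -1.12 to -0.85 in *Nestin-Pex5*-/- and -1.70 to -1.10 in wild type, ranges that overlap. For the other 6 genes it was lower in *Nestin-Pex5*-/-, with a difference of -0.44 for *Casp4*, -0.58 for *Casp8*, -0.61 for *Casp1*, -0.98 for *Gsdmd*, -1.39 for *Aim2* and -1.53 for *Nlrp3*. On the log2 scale the main *Pycard* probe set thus rose by more than the marker mean, and the called genes *Casp1*, *Casp4*, *Casp8* and *Gsdmd* rose by less than that mean. For *Pycard* this rests on that probe set, since the others had log2 fold changes of 0.12 and -0.02 and the mean of all 3 had 0.69, all below the marker difference of 1.57. Those other probe sets read in the range of the genes not expected in brain. The 19 markers themselves had log2 fold changes from 0.453 to 2.998, a span that holds those of all the called inflammasome genes. The probe sets of *Casp1*, *Casp4*, *Casp8*, *Gsdmd*, *Nlrp3* and *Aim2* also lay below the median level, where the share of background in a value is unknown. *Nlrp3* and *Aim2* did not fall themselves, with log2 fold changes of 0.04 and 0.18. Their negative differences come from the marker rise of 1.57, and a transcript that was not detected would give the same. Whether the called genes rose by less than microglia transcripts in general was not tested. Without *Itgam*, *Adgre1*, *Cd68* and *Trem2* in the marker list, *Pycard* stood 0.61 above, with -1.19 to -0.95 in *Nestin-Pex5*-/- and -2.01 to -1.41 in wild type, ranges that no longer overlap. The other 6 genes stayed lower on average in *Nestin-Pex5*-/- by that list, but the ranges of *Casp1* and *Casp4* then overlapped. *Casp1* had -3.39 to -2.82 in *Nestin-Pex5*-/- and -2.86 to -2.58 in wild type. *Casp4* had -3.23 to -2.74 in *Nestin-Pex5*-/- and -2.94 to -2.66 in wild type. With all 19 markers the ranges of *Casp1* and of *Casp4* did not overlap. Only the difference between genotypes can be read here, since levels of different probe sets are not comparable.

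**Figure D5:**
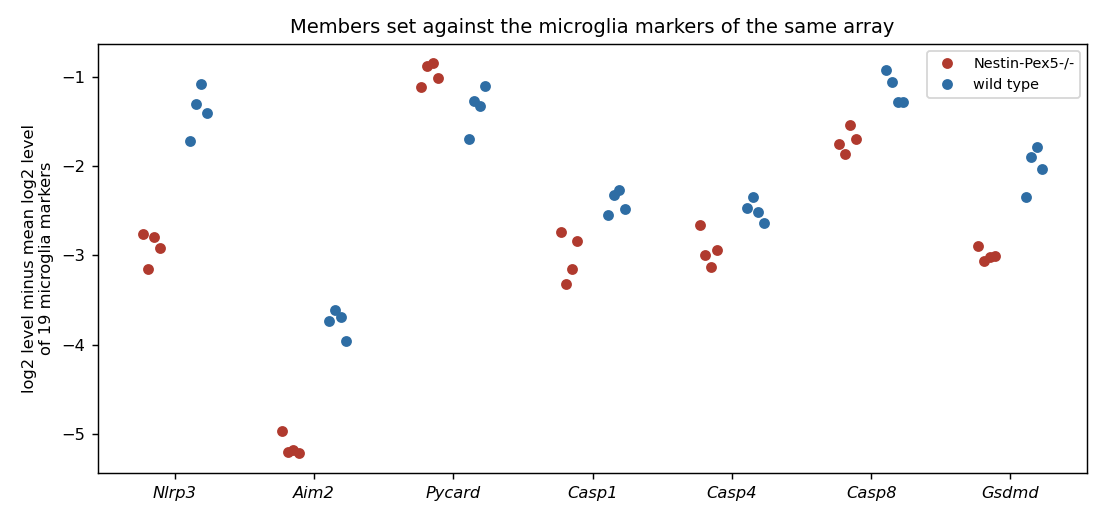
Level of each inflammasome gene minus the mean level of 19 microglia markers in the same array (log2), *Nestin-Pex5*-/- in red and wild type in blue, 1 point per array (n = 4 each). *Nestin-Pex5*-/- points lie higher on average for *Pycard* (difference 0.39) and lower for the other 6 genes, down to -1.53 for *Nlrp3*. The log2 fold change of *Nlrp3* itself was 0.04, so its difference comes from the markers.

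Among markers of other immune cells, only *Ms4a7* of the border macrophage list was called higher. Of all 18194 genes, 3.98% were called higher and 0.791% lower by limma. Without adjustment, 1611 of all genes were higher and 1457 lower at p under 0.05. Of 9 neutrophil markers 0 were called in either direction by limma (without adjustment, p was under 0.05 for 2, both lower), and their mean was 4.86 to 4.99 in *Nestin-Pex5*-/- and 4.85 to 5.22 in wild type. Of 6 monocyte markers 0 were called (without adjustment, 1 higher and 2 lower), and the mean was 6.17 to 6.34 in *Nestin-Pex5*-/- and 6.38 to 6.51 in wild type. Of 9 markers of border macrophages 1 was higher, while the mean of the list was 6.07 to 6.43 in *Nestin-Pex5*-/- and 5.86 to 6.22 in wild type. For T cells 0 of 7 markers and for B cells 0 of 6 were called by limma (without adjustment, 0 of the T cell markers and 1 of the B cell markers, higher). Astrocyte markers averaged 12.06 to 12.22 in *Nestin-Pex5*-/- and 11.46 to 11.73 in wild type, with 2 of 8 higher (*Gfap* and *Aqp4*), while oligodendrocyte markers averaged 12.14 to 12.61 in *Nestin-Pex5*-/- and 11.56 to 12.42 in wild type. Of the 7 oligodendrocyte markers 0 were called by limma, with 6 higher at p under 0.05 before adjustment. Neuron markers averaged 12.38 to 12.40 in *Nestin-Pex5*-/- and 12.46 to 12.50 in wild type, with 0 of 9 called and 2 lower before adjustment. The part of these cells in the result was not tested either.

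Within a genotype the 5 genes that rose did not deviate together in all arrays. *Nestin-Pex5*-/- array 10 lay above the group mean in 5 of the 5 genes, by 0.11 on average, while array 7 did so in 2, and averaged -0.09 from the mean. In wild type, array 4 lay above the mean in 3 of 5 genes, by 0.096 on average, and array 1 averaged -0.09 from it with 2 genes above. These mean deviations are small beside the differences between the genotypes, which ran from 0.59 to 1.96. Leaving out wild type array 4, the array set apart on the second component, kept all 5 calls.

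The genes whose profile over the 8 arrays was nearest to that of each gene that rose were named by the root-mean-square distance of centred log2 values, which includes the genotype difference. Nearest to *Pycard* were *Pld4* (distance 0.15), *Fcgr1*, the high-affinity Fc gamma receptor, and *Clec5a*, a myeloid lectin receptor. Nearest to *Casp1* were *Dtx3l* (0.12), *Tgfbr2*, the type II receptor of TGF-beta, and *Ddx60*, an RNA helicase. Nearest to *Casp4* were *Lair1* (0.098), an inhibitory collagen receptor, the proton-sensing receptor *Gpr65* and the receptor kinase *Axl*. These lists held no other inflammasome gene. Nearest to *Casp8* were *Gatm* (0.082), an enzyme of creatine synthesis, *Pros1*, a ligand of the receptor family of *Axl*, and *Vwa5a*. Nearest to *Gsdmd* were *Plcg2* (0.076), a phospholipase of immune receptor signalling, *Arhgap4* and *Prcp*. The arrays share genotype and normalization, so these distances are descriptions over 8 arrays.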

How the data were processed

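Hypothalamus RNA of 4 *Nestin-Pex5*-/- and 4 wild type mice was measured on 8 arrays, all of which were used. The authors deposited log2 values made with RMA, named without a version in the submitters' processing notes. Which software and which filter went with it is not given in the sources used here. Quantile normalization fixes the overall level of an array, so a shift of all genes would not be seen, and no detection calls were used.

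The platform annotation names 1 gene for 34958 of the 45101 probe sets, and only these were used, which leaves out 932 shared by several genes and 9211 that are unnamed here. Symbols were brought to the GRCm38.p6 annotation for 34754 of them. Differences between genotypes were fitted by limma 3.58.1 under R 4.3.3 (genotype as the only term, eBayes, two-sided), with Benjamini-Hochberg adjustment over 18194 genes and a threshold of 0.05. The fit was tested on simulated data. The exact permutation test ran over 70 assignments, with 0.029 as its smallest p. P-values measure the spread between these mice only, and the number of arrays limits the precision. No batch is given in the labels, and the genotypes share no replicate number.

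The genes and lists were chosen with earlier results of these data known. Text names were taken by rule: all members, all measured cytokines, receptors and caspases of the lists, and up to 5 called genes with the largest change from each other list (2 by level where fewer than 2 passed), plus 3 nearest profiles per called member. *Fadd*, *Ripk3*, *Mlkl*, *Nek7*, *Clic1*, *Kcnk6*, *P2rx7*, *Naip6*, *Nlrp6*, *Nlrp10*, *Nlrp12*, *Mefv*, *Ms4a7*, *Gfap*, *Aqp4* and *P2ry12* were added after their values were seen. Alternatives covered the probe set choice, a filter on dim probe sets, scaling to *Actb* or to 7 reference genes, renewed quantile normalization, eBayes with trend and robust settings, array weights, a threshold of 0.01 and leaving out each array. Motifs were searched in RefSeq promoter windows. Figures were drawn with matplotlib 3.10.9.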

Additional observations from a re-analysis of the deposited data

Results flagged for a closer look

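In 8 of 104 groups of 4 arrays examined over the named genes and probe sets, 1 array stood far from the other 3 relative to the range of the group, where chance gives about 1 in 20 groups. The measure is the gap of the extreme array to its neighbour divided by the range. The only inflammasome gene among them was *Casp4*, with array 9 lowest in *Nestin-Pex5*-/- (6.17, the others 6.47 to 6.49, ratio 0.940).

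Among the sensors, *Naip2* stood out in both genotypes, with array 8 lowest in *Nestin-Pex5*-/- (5.85, the others 6.10 to 6.13, ratio 0.879) and array 2 highest in wild type (4.97, the others 4.49 to 4.54, ratio 0.882). Among the receptors, *Il1r2* had array 9 highest in *Nestin-Pex5*-/- (5.82, ratio 0.849), *Il18r1* had array 8 lowest in *Nestin-Pex5*-/- (3.69, ratio 0.891) and *Sigirr* had array 4 highest in wild type (6.69, ratio 0.888). Among the caspases, array 7 was lowest in *Nestin-Pex5*-/- for *Casp9* (8.30, ratio 0.845) and for *Casp12* (6.41, ratio 0.909).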

How the results depend on the processing

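The calls of the 7 inflammasome genes were the same under each alternative in which the gene was tested, and the directions of the 5 that rose were too. Without probe sets below the median level, only *Pycard* remained to be tested, with 1 of 1 gene called higher. Over the alternatives the log2 fold change of *Pycard* ran from 0.69 (mean of its probe sets) to 2.10, of *Casp1* from 0.83 to 1.02, of *Casp4* from 1.0 to 1.21, of *Casp8* from 0.87 to 1.07 and of *Gsdmd* from 0.46 to 0.65 (adjusted p up to 0.0351). *Aim2* ran from 0.052 to 0.23 and *Nlrp3* from -0.09 to 0.15, with no call. Leaving out 1 array kept 5 genes higher and 0 lower. The level relative to microglia markers was also compared between genotypes with the reduced list. The differences, *Nestin-Pex5*-/- minus wild type, were -1.31 for *Nlrp3*, -1.17 for *Aim2*, 0.61 for *Pycard*, -0.39 for *Casp1*, -0.22 for *Casp4*, -0.36 for *Casp8* and -0.76 for *Gsdmd*.

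In the 8 lists around them, 37 genes were higher. Leaving out dim probe sets gave 19 of 54, and leaving out 1 array gave 30 to 41. Scaling to *Actb* gave 2 lower genes and array weights 1, against 0. *Il1rn* passed the threshold from its most variable probe set (log2 fold change 0.70, adjusted p = 0.0245). *Ifnar2* lost its call from its most variable probe set (log2 fold change 0.49, adjusted p = 0.111). *Il1a*, *Il33*, *Cflar*, *Relb* and *Sting1* lost their call in several fits without 1 array. Among all genes, 724 were higher and 144 lower. Array weights gave 1351 and 699, the threshold of 0.01 gave 467 and 20, scaling to *Actb* gave 540 and 1086, and the most variable probe sets gave 94 lower. Of all calls 83.4% were higher, but 33.2% after scaling to *Actb*, which was itself 0.13 higher in *Nestin-Pex5*-/- and so lowers every gene by that amount there. Leaving out 1 array gave 543 to 1080 higher genes and 46 to 331 lower, most of both without wild type array 4. No paired analysis was possible because the genotypes share no replicate number. Of the 7 main probe sets 6 lay below the median level, where the share of background in a value is unknown.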
